A study of Homo sapiens with 6 samples.

Results

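The genes examined here encode the enzymes that make serine from a glycolytic intermediate and the enzymes that pass single carbon units from serine through folate. They were chosen by name: PHGDH, PSAT1, PSPH, SHMT1, SHMT2, MTHFD1, MTHFD2, MTHFD1L, MTHFD2L and ALDH1L2, and each was represented by its brightest probe set with 1 gene symbol. All 10 were found among the 18404 genes on the array. They were measured in MDA-MB-231, an established human line derived from a triple-negative breast cancer, in 3 cultures kept in DMEM with 25 mM glucose and 3 cultures kept in DMEM with 10 mM fructose. Every culture was a separately adapted batch that had spent 25 days in its sugar, and total RNA came from cells near 70% confluency, roughly 24 hours after new medium was given. The labels name no genetic change in either group, a single cell line was used, and the effects of the kind of sugar and of its concentration cannot be told apart, since both changed at once. The series asks how limiting glycolysis changes gene expression in these cells.

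Serine synthesis starts from 3-phosphoglycerate, an intermediate of glycolysis, which PHGDH oxidises, PSAT1 transaminates and PSPH dephosphorylates to serine. Serine hydroxymethyltransferases (SHMT1 in the cytosol, SHMT2 in mitochondria) then cleave serine to glycine and load its carbon onto tetrahydrofolate. In mitochondria MTHFD2 or MTHFD2L and then MTHFD1L release that carbon as formate, ALDH1L2 can instead oxidise it to carbon dioxide while making NADPH, and in the cytosol MTHFD1 reloads formate onto folate for the synthesis of purines, thymidylate and methionine. PHGDH, PSAT1, SHMT2 and MTHFD2 are known targets of ATF4, a transcription factor of the amino acid and stress response, and MDA-MB-231 is known as a breast cancer line with little PHGDH protein.

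The deposited values were RMA intensities, which are array brightness after background correction and normalization between arrays, on a linear scale. Medians of the tested probe sets were 32.8, 32.3 and 31.5 on the glucose arrays and 33.1, 31.7 and 33.5 on the fructose arrays. Fructose replicates 1 and 3 thus had medians above every glucose array, and replicate 2 did not. TXNIP, a glucose-responsive gene that checks the sugar labels, was at 1639, 1781 and 1656 in the glucose cultures and at 107, 122 and 136 in the fructose cultures, so fructose replicate 2 was as low as the other fructose arrays. On the first principal component, with 28.8% of the variance, fructose replicate 2 stood apart from the other fructose arrays, at 5.67 against 17.9 and 19.3, with the glucose arrays between -14.8 and -13.5. All 5 fixed markers of a mesenchymal breast line (VIM, CD44, AXL, MSN and CAV1) were brighter than the median probe set. Of the 7 luminal markers 3 were above it (GATA3, KRT19 and EPCAM), of the 4 leukocyte markers 0, of the 5 fibroblast markers 1 (COL1A1) and of the 3 hepatocyte markers 1 (APOA1). The summed intensity of the mesenchymal markers was 10664 to 10741 in glucose and 10691 to 11159 in fructose.

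No member passed the test over all 28230 probe sets (limma, Benjamini-Hochberg adjusted p under 0.05). That call was made for 1 probe set or 0.00354% of those tested. It was TXNIP, the gene used above to check the labels (log2 difference -3.80, limma adjusted p = 4.7e-05). SHMT2 was the single member with an unadjusted p under 0.05 and also the single member whose fructose arrays all lay outside the glucose arrays. The background of these rules is 13.1% and 20.2% of all probe sets, so 1 of 10 members is no more than the share of the whole array. With an intensity trend and robust variances the test called 1.68% of all probe sets, and among bright probe sets alone 2.30%, but again 0 members (SHMT2 had limma adjusted p-values of 0.071 and 0.11). Of the members 7 had a higher mean in fructose and 3 a lower mean, where 56.2% of all probe sets were higher. In RNA of whole cultures, more cells expressing a gene and more RNA per cell cannot be told apart. The median difference of the 10 was 0.15 on the log2 scale, beside 0.021 for all probe sets. For 5 members (PHGDH, PSAT1, MTHFD2, MTHFD1L and MTHFD2L) fructose replicates 1 and 3 lay above every glucose array and replicate 2 did not, the order of 8.32% of all probe sets. For SHMT1 and MTHFD1 replicates 1 and 3 lay below every glucose array and replicate 2 did not, the order of 4.78%, and PSPH, ALDH1L2 and SHMT2 had neither order.

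**Figure D1:**
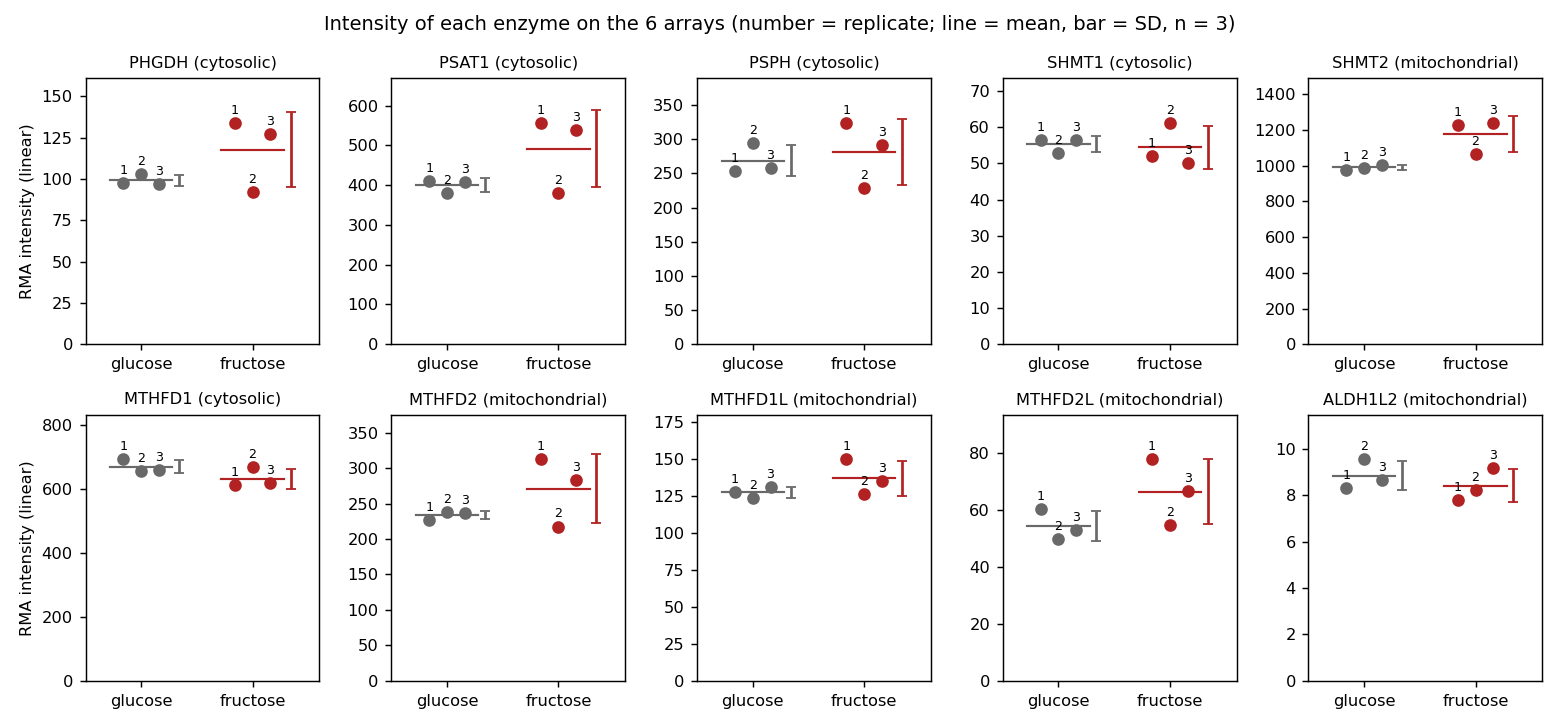
RMA intensity (linear axis from 0) of each enzyme on the 3 glucose and 3 fructose arrays, with the replicate number at each point, the group mean as a line and the SD as a bar. Fructose replicate 2 is the lowest fructose array for PHGDH, PSAT1, PSPH, SHMT2, MTHFD2, MTHFD1L and MTHFD2L and the highest for SHMT1 and MTHFD1.

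PHGDH, which commits glycolytic carbon to serine, had intensities of 97.5, 103 and 96.8 in glucose and 134, 91.8 and 127 in fructose. Fructose replicates 1 and 3 were above every glucose array and replicate 2 was below all of them, so the groups overlapped. The means were 99.1 ± 3.31 (SD, n = 3) and 118 ± 22.7 (SD, n = 3), a log2 difference of 0.23 (95% interval -0.11 to 0.57, limma adjusted p = 0.54). This probe set was brighter than 73.2% of those tested. A brighter probe set annotated to both MZT2B and PHGDH was not used, because its signal cannot be assigned to a single gene. It read 539, 523 and 682 in glucose and 521, 550 and 576 in fructose, a difference of -0.073, so the sign for PHGDH depends on leaving it out.

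PSAT1, the aminotransferase of the pathway, read 412, 379 and 408 in glucose and 557, 380 and 539 in fructose. Here too replicates 1 and 3 exceeded all glucose arrays while replicate 2 matched the lowest of them. The log2 difference was 0.28 (SE 0.15, 95% interval -0.07 to 0.63, limma adjusted p = 0.48), and fructose replicate 2 lay 1.44-fold below the mean of the other fructose arrays. PSPH, the phosphatase of the last step, was less regular. It read 254, 294 and 258 in glucose and 324, 228 and 291 in fructose, and the groups overlapped. Its log2 difference was 0.053 (95% interval -0.27 to 0.38), and its dimmer probe set gave 0.19 with replicate 2 between the other fructose arrays.

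Among the mitochondrial enzymes, SHMT2 showed the clearest separation. Its intensities were 978, 990 and 1005 in glucose and 1231, 1065 and 1241 in fructose, with every fructose array above every glucose array. The means were 991 ± 13.3 (SD, n = 3) and 1179 ± 99.1 (SD, n = 3), and the log2 difference was 0.25 (SE 0.081, 95% interval 0.056 to 0.44). In limma its unadjusted p was 0.018 and its adjusted p 0.29. The exact two-sided permutation test gave p = 0.1, the smallest value that 3 arrays against 3 allow. Replicate 2 was again the lowest of the fructose arrays, 1.16-fold below the other pair.

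MTHFD2, the mitochondrial dehydrogenase and cyclohydrolase found in embryonic and tumour cells, read 227, 238 and 236 in glucose and 312, 218 and 283 in fructose. Replicates 1 and 3 lay above the glucose arrays and replicate 2 below them. The log2 difference was 0.20 (SE 0.13, limma adjusted p = 0.58), and the dimmer MTHFD2 probe set gave 0.23 with the same array lowest in fructose. MTHFD2L, its paralog, also found in adult tissues, read 60.5, 50.0 and 53.0 in glucose and 77.9, 54.9 and 66.9 in fructose. Its difference was 0.28 (SE 0.14, adjusted p = 0.45), and fructose replicate 2 alone lay within the glucose range. MTHFD1L, the mitochondrial formate-producing synthetase, read 128, 124 and 131 in glucose and 150, 126 and 135 in fructose, a smaller difference of 0.099 (95% interval -0.095 to 0.29) in the same order of arrays. A pair of further probe sets shared by MTHFD1L and other loci was not used and differed by -0.058 and -0.031. ALDH1L2, the mitochondrial 10-formyltetrahydrofolate dehydrogenase, was dim, brighter than 19.3% of the probe sets, with intensities between 7.79 and 9.53 on all arrays and a difference of -0.074 (95% interval -0.29 to 0.14).

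The cytosolic folate enzymes SHMT1 and MTHFD1 had the reverse order. SHMT1 read 56.6, 52.8 and 56.5 in glucose and 51.9, 61.3 and 50.1 in fructose, so replicates 1 and 3 were below and replicate 2 above every glucose array. MTHFD1, the trifunctional cytosolic enzyme, read 692, 656 and 659 in glucose and 611, 668 and 617 in fructose. Replicates 1 and 3 were again below all glucose arrays, and replicate 2 was within their range. The log2 differences over all arrays were -0.028 (95% interval -0.25 to 0.19) for SHMT1 and -0.082 (95% interval -0.25 to 0.083) for MTHFD1. A change in either direction larger than these bounds is outside the interval, but neither enzyme is shown to be unaltered.

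**Figure D2:**
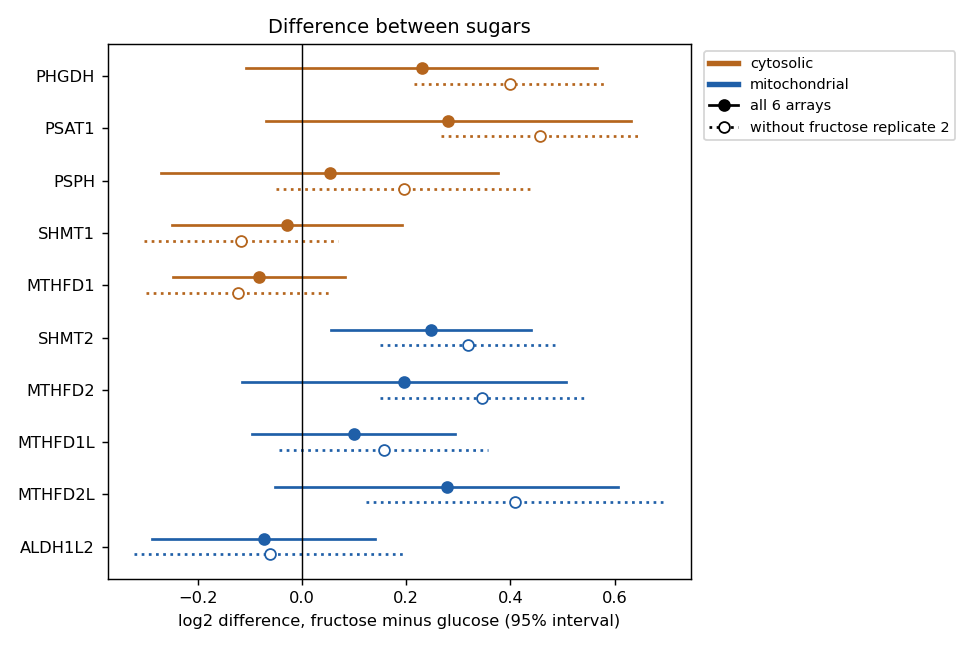
Log2 difference between fructose and glucose (horizontal axis) for each enzyme with its 95% interval from limma, over all 6 arrays (filled, solid) and without fructose replicate 2 (open, dotted), coloured by compartment. Over all arrays the interval excludes 0 for SHMT2 alone, and without replicate 2 also for PHGDH, PSAT1, MTHFD2 and MTHFD2L.

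The compartments were compared as a description. The 5 cytosolic members had a median difference of 0.053 with 3 higher and 2 lower in fructose, and the 5 mitochondrial members a median of 0.20 with 4 higher and 1 lower. The cytosolic median was -0.028 with the probe set shared by MZT2B and PHGDH. It ran from 0.0027 without fructose replicate 1 to 0.20 without fructose replicate 2, and leaving out any of the 6 arrays moved it by over 1.5 times. The mitochondrial median ran from 0.086 without fructose replicate 1 to 0.32 without fructose replicate 2, and these 2 arrays alone moved it that far. Against the glucose mean, the cytosolic median was 0.27, -0.073 and 0.12 on fructose replicates 1, 2 and 3, and the mitochondrial median was 0.31, -0.016 and 0.28. Within the cytosol, PHGDH, PSAT1 and PSPH were above the glucose mean on replicates 1 and 3, and SHMT1 and MTHFD1 were below it there.

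Partner enzymes were set against each other within each array, as the change of their log2 ratio between the sugars. The ratio of SHMT2 to SHMT1 differed by 0.28 in fructose, with 0.40, -0.044 and 0.47 on replicates 1, 2 and 3 relative to the glucose mean (exact permutation p = 0.3, adjusted over 4 pairs 0.53). For MTHFD2 over MTHFD1 the change was also 0.28, with 0.55, -0.10 and 0.39 (exact permutation p = 0.4, adjusted 0.53). For MTHFD1L over MTHFD1 it was 0.18, with 0.36, -0.015 and 0.20 (exact permutation p = 0.3, adjusted 0.53). The ratio of the mitochondrial paralogs MTHFD2 and MTHFD2L differed by -0.082, with -0.10, -0.12 and -0.024 (exact permutation p = 0.6, adjusted 0.60). The first 3 ratios favoured the mitochondrial partner on fructose replicates 1 and 3 and lay slightly below the glucose mean on replicate 2. For MTHFD2 over MTHFD1, replicate 2 was below every glucose array, the lowest of which stood at -0.092. Both ratios over MTHFD1 share that gene, so they are not separate observations. No pair passed, and 3 arrays against 3 cannot give an exact p below 0.1.

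Fructose replicate 2 was then compared with replicates 1 and 3, without a test since it is 1 array against 2. It was below both for 7 of 10 members, where 38.5% of all probe sets had that order, and above both for 2 of 10, where the share was 30.8%. In log2 units it lay at -0.53 from the mean of the other fructose arrays for PSAT1, -0.51 for PHGDH, -0.45 for MTHFD2, -0.43 for PSPH, -0.40 for MTHFD2L, -0.22 for SHMT2 and -0.17 for MTHFD1L. It lay at 0.26 for SHMT1 and 0.12 for MTHFD1, and at -0.039 for ALDH1L2. Over all probe sets the same quantity had a median of -0.020 and an SD of 0.22. The other fructose arrays also departed from their pair. The median over the 10 members was 0.25 for replicate 1, -0.31 for replicate 2 and 0.11 for replicate 3. Replicate 1 was the furthest array for MTHFD1L, at 0.20, and replicate 3 for ALDH1L2, at 0.20. Replicates 1 and 3 above every glucose array with replicate 2 not above them was the order of 5 of 10 members (PHGDH, PSAT1, MTHFD2, MTHFD1L and MTHFD2L) and of 8.32% of probe sets. MTHFD1L had it narrowly, with 135 on fructose replicate 3 against 131 on glucose replicate 3. The reverse order, replicates 1 and 3 below and replicate 2 not, was that of SHMT1 and MTHFD1 and of 4.78% of probe sets. Replicates 1 and 2 alone above glucose held for 0 members and 6.21% of probe sets, and replicates 2 and 3 alone for 0 members and 4.23%. For the 7 members with replicate 2 lowest in fructose neither order could occur, so these counts only restate that position. The members were chosen with earlier results of these arrays known, and many of them vary together. Their counts beside the shares of all probe sets are therefore a description and no independent evidence.

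**Figure D3:**
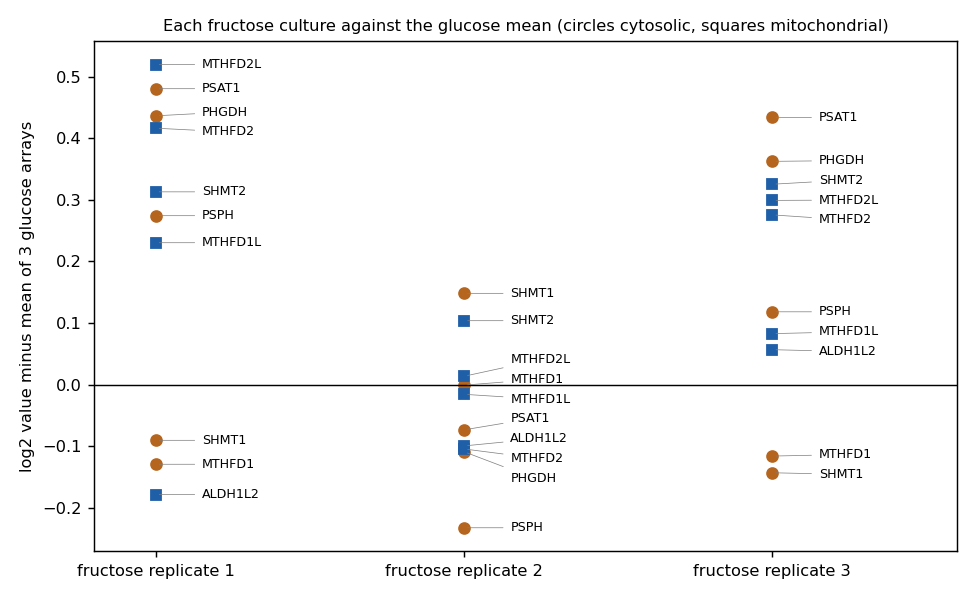
Log2 value of each enzyme on the 3 fructose arrays minus its mean over the 3 glucose arrays (vertical axis), with circles for cytosolic and squares for mitochondrial enzymes. PSAT1 stands at 0.48 and 0.43 on replicates 1 and 3 and at -0.073 on replicate 2, while SHMT1 stands at -0.090, -0.14 and 0.15.

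Without fructose replicate 2, a choice made with these values known, the arrays of the sugars did not overlap for 8 of 10 members, 6 higher and 2 lower, where 33.3% of all probe sets did not overlap (19.7% higher and 13.6% lower). An unadjusted p under 0.05 was then found for 5 of 10, against 14.0% of all probe sets. PSAT1 was 1.37-fold higher (log2 0.46, 95% interval 0.27 to 0.65), MTHFD2L 1.33-fold, PHGDH 1.32-fold, MTHFD2 1.27-fold and SHMT2 1.25-fold. None passed over all probe sets even then, with limma adjusted p-values of 0.16 for PSAT1 and 0.17 for PHGDH. Leaving out fructose replicate 1, fructose replicate 3 or glucose replicate 1 instead left 0 members with an unadjusted p under 0.05. Array weights, which estimate how far each array departs from its group, were 0.72 for fructose replicate 2 and 0.82 to 1.24 for the other arrays. Mean log2 of the 4091 control probe sets was 6.19 on replicate 2, between 6.18 and 6.21 on the other fructose arrays. On the glucose arrays it was higher, at 6.26, 6.31 and 6.26. The array medians also put fructose replicates 1 and 3 above every glucose array and replicate 2 not. The part of array or culture quality in this order was not tested.

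The promoters of the members were searched because 5 of them had the first of these orders. RefSeq start sites (GRCh38.p14) were given for 7 of 10 members, each with 250 bases before and 50 after the start, and PSPH, SHMT2 and ALDH1L2 had no entry. MTHFD1L had 4 such windows, MTHFD2L 2 and the other members with an entry 1 each, 11 in all, and a gene counts as holding a motif when any of its windows does. On both strands, TGATGNAAT (the composite element bound by ATF4 with C/EBP proteins) was found in 3 of 11 windows and 0.991% of all windows. All 3 are overlapping windows of MTHFD1L that hold the same stretch, so this is 1 site counted 3 times. The same holds for the MTHFD1L matches of CACGTG and CCAAT below. By gene TGATGNAAT was held by 1 of 7 members and 1.22% of all genes with an entry. CACGTG, the E-box bound by MYC, was found in 4 of the 11 windows and 7.26% of all windows, or in 2 of 7 members (MTHFD1L and MTHFD1) and 8.77% of genes. TGACNNNGC, the core of the antioxidant response element of NRF2, was found in 2 of the 11 windows and 13.3% of all windows, or in 2 of 7 members (MTHFD2 and MTHFD2L) and 16.1% of genes. CCAAT, the box bound by NF-Y, was added after the sequences were seen. It was found in 8 of the 11 windows and 34.6% of all windows, or in 6 of 7 members (all but MTHFD2L) and 39.7% of genes. The motifs do not overlap each other in the stretches below, and a match describes letters, not binding. The 250 bases before the start are shown for 4 of the 5 genes with replicates 1 and 3 above glucose and replicate 2 not (PSAT1, PHGDH, MTHFD2, MTHFD1L) and for MTHFD1, which had the reverse order. All run 5′ to 3′ along the plus strand, with TGATGNAAT, CACGTG and CCAAT matches in capitals.
PSAT1, chr9:78296875-78297124, plus strand: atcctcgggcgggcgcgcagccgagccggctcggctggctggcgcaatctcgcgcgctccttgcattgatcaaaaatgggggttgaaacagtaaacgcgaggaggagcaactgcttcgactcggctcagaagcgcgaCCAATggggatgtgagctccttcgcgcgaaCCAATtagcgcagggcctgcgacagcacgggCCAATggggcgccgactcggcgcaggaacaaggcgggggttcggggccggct
PHGDH, chr1:119711684-119711933, plus strand: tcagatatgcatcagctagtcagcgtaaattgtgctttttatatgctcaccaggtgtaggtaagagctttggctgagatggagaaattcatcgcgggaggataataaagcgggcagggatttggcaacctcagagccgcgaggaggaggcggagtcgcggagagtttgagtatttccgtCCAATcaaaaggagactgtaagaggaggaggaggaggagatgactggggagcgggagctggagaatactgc
MTHFD2, chr2:74198365-74198614, plus strand: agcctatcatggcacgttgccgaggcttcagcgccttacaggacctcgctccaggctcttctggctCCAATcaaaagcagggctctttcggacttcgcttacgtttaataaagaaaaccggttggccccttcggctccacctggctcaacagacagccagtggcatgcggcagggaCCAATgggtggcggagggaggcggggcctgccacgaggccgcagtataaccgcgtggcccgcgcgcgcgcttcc
MTHFD1L, chr6:150866197-150866446, plus strand: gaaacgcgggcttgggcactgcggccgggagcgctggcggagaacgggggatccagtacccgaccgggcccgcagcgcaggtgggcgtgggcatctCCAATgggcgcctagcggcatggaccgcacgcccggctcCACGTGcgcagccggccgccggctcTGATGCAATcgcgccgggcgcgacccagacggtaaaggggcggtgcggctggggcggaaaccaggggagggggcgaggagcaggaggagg
MTHFD1, chr14:64388103-64388352, plus strand: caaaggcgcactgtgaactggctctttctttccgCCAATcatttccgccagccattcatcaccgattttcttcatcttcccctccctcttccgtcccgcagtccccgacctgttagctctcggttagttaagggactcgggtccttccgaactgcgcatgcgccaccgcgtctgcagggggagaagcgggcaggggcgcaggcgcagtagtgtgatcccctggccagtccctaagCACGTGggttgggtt
PSAT1 held 3 CCAAT boxes in this stretch, MTHFD2 held 2, and PHGDH, MTHFD1L and MTHFD1 held 1 each. Of the members not shown, SHMT1, which also had the reverse order, held 2, and MTHFD2L, which had the first order, had no match. The numbers of boxes overlapped between the 2 orders in these 7 genes, and a link between boxes and order was not tested. MTHFD1L has 3 closely spaced start sites and 1 further away. In the stretch shown its TGATGCAAT lies 82 to 90 bases and its CACGTG 110 to 115 bases before the start. Counted from the first of the 3 nearby starts, the TGATGCAAT lies 24 to 32 bases after that start and the CACGTG spans it.

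The regulators of the pathway were examined next. ATF4 read 1099, 1054 and 1103 in glucose and 1368, 1233 and 1357 in fructose, without overlap and with replicate 2 the lowest fructose array. The log2 difference was 0.28 (SE 0.072, limma adjusted p = 0.21). Of the 23 genes of the ATF4 branch of the amino acid response, 10 were higher and 1 lower at an unadjusted p under 0.05, where 7.65% and 5.43% of all probe sets were, and 0 passed over all probe sets. That count of 11 was 6 without fructose replicate 1 or glucose replicate 3, 7 without fructose replicate 3, glucose replicate 1 or glucose replicate 2, and 18 without fructose replicate 2. Its median was 0.28, or 0.39 once fructose replicate 2 was left out. Fructose replicates 1 and 3 above glucose and replicate 2 not, the order of the 5 enzymes above, held for 8.32% of probe sets. Of these 23 genes 11 had it: DDIT3, DDIT4, TRIB3, SESN2, ASNS, SLC7A11, SLC3A2, PCK2, VLDLR, NUPR1 and XPOT. The 3 genes with a lower mean in fructose were EIF2S1 (-0.15), ATF3 (-0.15) and STC2 (-0.13), and ATF5 had replicate 2 as its highest fructose array. CHAC1, which degrades glutathione, differed by 0.83, PPP1R15A, which restores translation after stress, by 0.70. ASNS, the asparagine synthetase, read 380, 414 and 378 in glucose and 514, 318 and 516 in fructose, and so repeated the order of PHGDH with replicate 2 below every glucose array. This list was chosen with earlier results of these arrays known and is no independent evidence.

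Of 10 other regulators, 3 were higher at an unadjusted p under 0.05 and 0 lower, where 7.65% and 5.43% of all probe sets were. MYC, which drives serine and folate enzymes in many tumours, differed by 0.39 (adjusted p = 0.26), RPTOR, a subunit of the growth kinase complex mTORC1, by 0.26, and KEAP1, the inhibitor of NRF2, by 0.24. MYC read 778, 882 and 780 in glucose and 1153, 896 and 1161 in fructose, again with replicate 2 nearest to glucose. NFE2L2, which encodes NRF2, differed by 0.066 (95% interval -0.17 to 0.30) and PKM, whose activity sets how much glycolytic carbon is spared for serine, by 0.016 (95% interval -0.16 to 0.19).

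Transport of serine and glycine had 4 of 12 genes higher and 0 lower at an unadjusted p under 0.05, with a median of 0.13. Of all probe sets 7.65% were higher and 5.43% lower at that threshold. SLC1A4, which carries serine and other neutral amino acids, read 63.9, 67.4 and 74.0 in glucose and 102, 88.8 and 98.9 in fructose. All fructose arrays were above all glucose arrays, replicate 2 included, a difference of 0.50 (SE 0.088, limma adjusted p = 0.14). SLC25A38, a mitochondrial glycine carrier, differed by 0.27 and SFXN2 by 0.33, and SFXN1, the mitochondrial serine carrier, differed by -0.17 (adjusted p = 0.39) with no overlap. Among genes of folate uptake, retention and reduction (8 genes, median 0.0099), 1 was higher and 1 lower at that threshold, and 1 in all without glucose replicate 1. GGH, which removes glutamates from folate and so lets it leave the cell, read 468, 468 and 491 in glucose and 356, 392 and 321 in fructose, a difference of -0.42 (SE 0.089, limma adjusted p = 0.17). QDPR, which recycles tetrahydrobiopterin, differed by 0.22 and DHFR2 by -0.14. SLC25A32, the mitochondrial folate carrier, differed by 0.022 (95% interval -0.13 to 0.17).

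The remaining lists had few genes past the unadjusted threshold, which 7.65% of all probe sets passed as higher and 5.43% as lower. In purine and thymidylate synthesis 0 of 10 genes were higher and 2 lower, PPAT (-0.24), the first enzyme of purine synthesis, and GMPS (-0.23), which makes GMP, and TYMS differed by -0.098. In the methionine cycle and transsulfuration 2 of 11 were higher and 0 lower, and 1 in all without fructose replicate 1, fructose replicate 3, glucose replicate 1 or glucose replicate 2. CTH, which releases cysteine from cystathionine, read 150, 160 and 158 in glucose and 360, 174 and 322 in fructose. Its difference was 0.80 (SE 0.25, limma adjusted p = 0.27), and 1.13 without fructose replicate 2, which stood near the glucose arrays. GSS, the glutathione synthetase, differed by 0.18 and GCLC, which makes its substrate, by 0.22. In glycine cleavage and other glycine and serine use 1 of 9 was lower, DLD (-0.21), a dehydrogenase subunit that the glycine cleavage system shares with other complexes, and 0 higher. The count was 0 without fructose replicate 3, glucose replicate 1 or glucose replicate 2, and AMT stood at 0.18 and SRR at -0.13. GLDC, the glycine decarboxylase, was dim, at 28.4, 33.8 and 23.8 in glucose and 37.8, 23.0 and 25.8 in fructose. Of 5 further genes listed under folate interconversion 0 passed in either direction, with MTFMT at -0.15, MTHFSD at -0.054 and MTRFR, a release factor of mitochondrial translation and no folate enzyme, at -0.068.

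**Figure D4:**
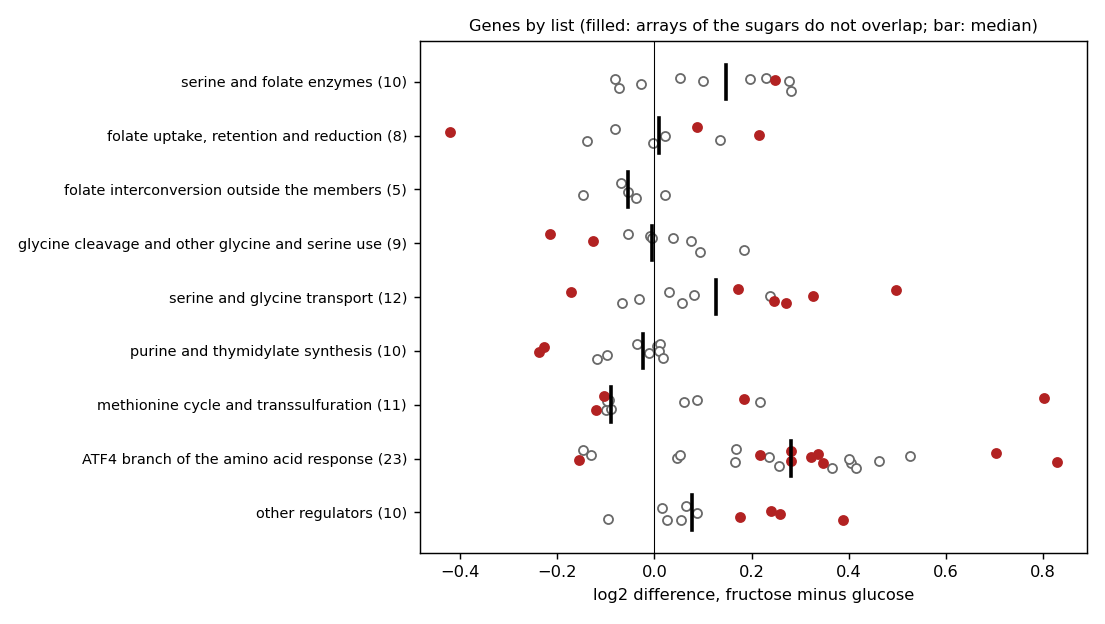
Log2 difference between fructose and glucose (horizontal axis) for the serine and folate enzymes and for each list of related genes, with the number of genes in brackets, filled points for genes whose glucose and fructose arrays do not overlap and a bar at the median. The ATF4 branch has a median of 0.28 and 9 filled genes of 23, and the enzymes a median of 0.15 and 1 filled gene of 10. Of all probe sets 20.2% do not overlap.

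Genes with the most similar profile over the 6 arrays were sought among 11050 genes brighter than the median probe set. Likeness was Pearson's r of log2 values, given as a description, since the arrays fall into sugars and the best of many genes will be high on 6 points. PSAT1 was nearest to SPOP (r 0.997), PCP4L1 (0.992) and NKX2-4 (0.991). SHMT2 was nearest to PPP1R15A (0.996), EPG5 (0.995) and NEK8 (0.994), and MTHFD2 to PHLDA1 (0.991), CXCL2 (0.990) and TNKS2 (0.989). These profiles differed in size: CXCL2, a chemokine, differed by 0.40 between the sugars and PHLDA1 by 0.032. Among the members, PHGDH and MTHFD2 had an r of 0.99, PHGDH and PSAT1 of 0.95, and PHGDH and MTHFD1 of -0.92.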

How the data were processed

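Biotin-labelled total RNA of 6 cultures, 3 per sugar, was hybridised to 1 array each. The authors deposited an RMA intensity for every probe set, per the submitters' processing notes. Program version and genome build: not given in the sources used here. Because the largest intensity was 9287, the scale was taken as linear and converted to log2 without a pseudocount. Precision is set by the number of arrays.

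Of 32321 rows, 4091 below the lowest annotated identifier were taken as controls and left out, leaving 28230. Symbols came from the platform annotation (19158 probe sets with 1 symbol, 1388 with several, 7684 unnamed here). Fructose was compared with glucose with R 4.3.3 and its package limma 3.58.1, using a linear model without covariates and moderated two-sided tests. P-values were adjusted by Benjamini-Hochberg over the tested probe sets, with a threshold of 0.05. The procedure was tested on simulated data with independent noise and changes larger than those of the members, so the test does not cover differences of their size.

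Named genes were the members, the 3 genes of each list with the smallest p, a few fixed genes (ATF4, MYC, NFE2L2, PKM, TYMS, SLC25A32, GLDC, TXNIP) and the 3 nearest profiles of PSAT1, SHMT2 and MTHFD2. SFXN1, ASNS, SLC7A5, EIF2S1, ATF3, STC2, the genes given by array order and the other probe sets were named after their values were seen. The members and lists were chosen with earlier results of these data known. Some list genes were not analysed here. Settings varied were the scaling, filter, variance model, array weights, a block for replicate number, leaving out single arrays, and averaging a gene's probe sets. Kept controls and the shared PHGDH probe set were added after the data were seen.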

Additional observations from a re-analysis of the deposited data

How the results depend on the processing

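No member was called over all probe sets by limma under any of the 16 alternatives, and the unadjusted count was 1 in the reported fit and 1 with an unmoderated test. PHGDH, PSAT1, SHMT2, MTHFD1, MTHFD2, MTHFD1L, MTHFD2L and ALDH1L2 kept their direction under all alternatives that could be run for them, except that PHGDH was at -0.073 with the probe set it shares with MZT2B. Leaving out single arrays gave -0.057 to 0.20 for PSPH, which was negative without fructose replicate 1, and -0.12 to 0.029 for SHMT1, which was positive without fructose replicate 1 (0.0027) and without fructose replicate 3. The count of members with an unadjusted p under 0.05 ran from 0 to 5 and that of members without overlap from 1 to 8 when single arrays were left out, and both were highest without fructose replicate 2. The count of probe sets called, 1 as reported, was 473 with an intensity trend and robust variances (1.68% of those tested), 325 among bright probe sets alone (2.30%) and 0 with the unmoderated test, where 3565 had an unadjusted p under 0.05. With the trend, SHMT2 reached an adjusted p of 0.071, and 1 gene of folate handling (GGH), 2 of serine and glycine transport (SLC1A4 and SLC25A38) and 3 of the ATF4 branch (ATF4, CHAC1 and SLC7A5) were called. Among bright probe sets 1 gene of each of these lists was called (GGH, SLC1A4 and CHAC1), and SHMT2 had 0.11.

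Deviations of same-numbered arrays correlated at -0.026, -0.021 and -0.054, which gave no sign of pairing by replicate number. Whether same-numbered cultures shared handling was not tested. With the replicate number as a block, 2 members had an unadjusted p under 0.05 (SHMT2, 0.034, and MTHFD2L, 0.023), and 0 passed over all probe sets. ALDH1L2 was dim and was not tested among bright probe sets. The median difference of the cytosolic members was 0.0027 to 0.20 and that of the mitochondrial members 0.086 to 0.32 when single arrays were left out, and the first was -0.028 with the shared PHGDH probe set. The unadjusted count of 11 in the ATF4 branch was 6 to 18 when single arrays were left out, 17 with array weights and 7 with the unmoderated test.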
